A study of Mus musculus with 3 samples.

Results

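The genes described here encode the kinases, checkpoint proteins, kinetochore subunits, spindle proteins and cytokinesis factors that carry a cell through mitosis, together with the transcription factors Foxm1 and Mybl2. They were chosen by name as 40 genes, without kinesins and cyclins, and all 90 probe sets of the array whose annotation gives 1 of these genes as the only symbol were taken. These are 90 of 45037 probe sets, and 40 of the 18193 genes that the annotation names. The cells were 4T1, a mouse mammary carcinoma line, grown in RPMI-1640 with 10% FBS, and each of 3 conditions was measured on 1 Affymetrix Mouse Genome 430 2.0 array. In the co-culture condition the cells grew for 1 week in contact with MSCs (commonly short for mesenchymal stem cells, though the labels leave it unexpanded) and were then separated from them. In the conditioned-medium condition they spent 1 week in MSC-CM, medium conditioned by MSCs, without contact, and in the regular-medium condition they grew without MSCs or MSC-CM, with no culture time stated. Where the MSCs came from and how the tumor cells were separated is not stated in the labels. With 1 array a condition there were no replicates, so no test was possible, and no value below carries a replicate error or a p-value.

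Mitosis is driven by the kinase Cdk1 with its cyclin partners, and by the Polo and Aurora kinases, which build the spindle and prepare the chromosomes. The kinetochore ties each chromosome to spindle microtubules, and the spindle checkpoint holds back the anaphase-promoting complex until every chromosome is attached. Most of these genes are transcribed in a wave late in the cell cycle. The MuvB core, with B-Myb (Mybl2) and then Foxm1, drives that wave in G2, and the same core within the DREAM complex represses the genes in resting cells. MuvB contacts promoters at a short element named CHR, and many of the same promoters carry CCAAT boxes bound by the factor NF-Y.

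Because the members were low together on the co-culture array, as described below, their promoters are shown for the letters of these elements. The RefSeq promoter table (build GRCm38.p6, 250 bases before to 50 after each transcription start) held windows for 33 of the 40 genes. Aurkb, Cdc25c, Dlgap5, Foxm1, Incenp, Spc24 and Tpx2 had none. The sequences below run 5′ to 3′ on the strand of the gene, and capitals mark a CHR match (TTTGAA or, on the other strand, TTCAAA) or an NF-Y box match (CCAAT or ATTGG). The first 4 are members with some of the lowest co-culture signals relative to regular medium. Cdk1 is shown as the central kinase, and Bub3 as a member with both kinds of match whose brightest probe set differed little. That probe set had a log2 difference of -0.33. With the median signal over its 5 probe sets taken on each array, Bub3 was at -0.99. This median fell on 1 weaker probe set, with 111.7 in co-culture and 221.9 in regular medium. The next brightest Bub3 probe set, with 872.4 in co-culture, gave -0.20.
Fam83d (chr2:158767849-158768148, plus strand): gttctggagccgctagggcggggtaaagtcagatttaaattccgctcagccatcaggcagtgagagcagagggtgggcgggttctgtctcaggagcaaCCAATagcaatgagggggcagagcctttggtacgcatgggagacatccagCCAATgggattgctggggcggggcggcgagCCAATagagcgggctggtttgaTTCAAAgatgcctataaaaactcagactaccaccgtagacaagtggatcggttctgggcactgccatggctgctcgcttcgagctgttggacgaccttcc
Spc25 (chr2:69206164-69206463, minus strand): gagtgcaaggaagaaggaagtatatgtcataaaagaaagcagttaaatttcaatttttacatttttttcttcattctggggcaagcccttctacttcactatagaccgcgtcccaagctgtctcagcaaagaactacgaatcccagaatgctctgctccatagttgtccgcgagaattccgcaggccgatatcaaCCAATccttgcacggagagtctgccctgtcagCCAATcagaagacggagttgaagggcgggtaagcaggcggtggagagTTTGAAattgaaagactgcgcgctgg
Plk1 (chr7:122159185-122159484, plus strand): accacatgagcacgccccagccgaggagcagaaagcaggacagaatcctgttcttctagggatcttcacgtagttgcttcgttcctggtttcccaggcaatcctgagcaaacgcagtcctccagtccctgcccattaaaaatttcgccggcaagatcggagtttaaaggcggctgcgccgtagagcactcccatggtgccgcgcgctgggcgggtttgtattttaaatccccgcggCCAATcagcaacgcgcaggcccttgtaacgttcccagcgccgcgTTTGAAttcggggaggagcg
Ttk (chr9:83834439-83834738, plus strand): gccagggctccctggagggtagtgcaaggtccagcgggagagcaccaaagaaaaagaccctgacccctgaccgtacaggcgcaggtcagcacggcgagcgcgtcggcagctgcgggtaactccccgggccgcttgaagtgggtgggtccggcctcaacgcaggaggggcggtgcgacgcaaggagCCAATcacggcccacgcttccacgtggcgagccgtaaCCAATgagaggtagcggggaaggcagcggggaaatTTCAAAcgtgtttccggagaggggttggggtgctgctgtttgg
Cdk1 (chr10:69352863-69353162, minus strand): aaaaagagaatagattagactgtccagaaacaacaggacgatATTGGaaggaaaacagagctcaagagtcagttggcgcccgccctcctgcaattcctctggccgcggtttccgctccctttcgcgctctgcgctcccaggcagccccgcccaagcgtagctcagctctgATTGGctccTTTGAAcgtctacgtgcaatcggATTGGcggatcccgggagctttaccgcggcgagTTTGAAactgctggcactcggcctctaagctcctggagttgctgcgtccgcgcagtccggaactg
Bub3 (chr7:131560120-131560419, plus strand): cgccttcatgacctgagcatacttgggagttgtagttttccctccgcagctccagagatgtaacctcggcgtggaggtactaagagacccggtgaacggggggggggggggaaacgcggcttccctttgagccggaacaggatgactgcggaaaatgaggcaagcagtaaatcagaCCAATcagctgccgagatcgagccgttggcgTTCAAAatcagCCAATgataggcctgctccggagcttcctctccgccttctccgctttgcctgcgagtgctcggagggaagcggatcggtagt

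The CHR letters were found in 26 of 36 member windows (72.2%), which belong to 23 of 33 genes, against 5878 of 32851 windows over all promoters (17.9%). The NF-Y box letters were in 27 of 36 member windows and in 37.4% of all windows. Both were in 24 member windows (66.7%) and in 6.95% of all windows. Bub3, Ect2 and Prc1 each have a pair of overlapping windows, so the windows are not independent. With 1 window a gene, 22 of 28 CHR matches began between 60 bases before and 50 bases after the start, with a median of -1.5, and NF-Y boxes lay further upstream with a median of -71.5. In 17 of these genes there were 2 or more NF-Y boxes. By window, 19 of 36 member windows (52.8%) had 2 or more, against 11.7% of all windows. No match was found for either in Birc5, Mad2l1, Mybl2, Nuf2, Nusap1, Plk4 and Pttg1, which says only that these letters are not in these windows. The 23 genes with a CHR match had a median log2 difference between co-culture and regular medium of -0.81, and the 10 genes without one had -0.83. For the NF-Y box the medians were -0.87 in 24 genes with a match and -0.57 in 9 without. A match is a description of letters and was not tested as a binding site.

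**Figure D1:**
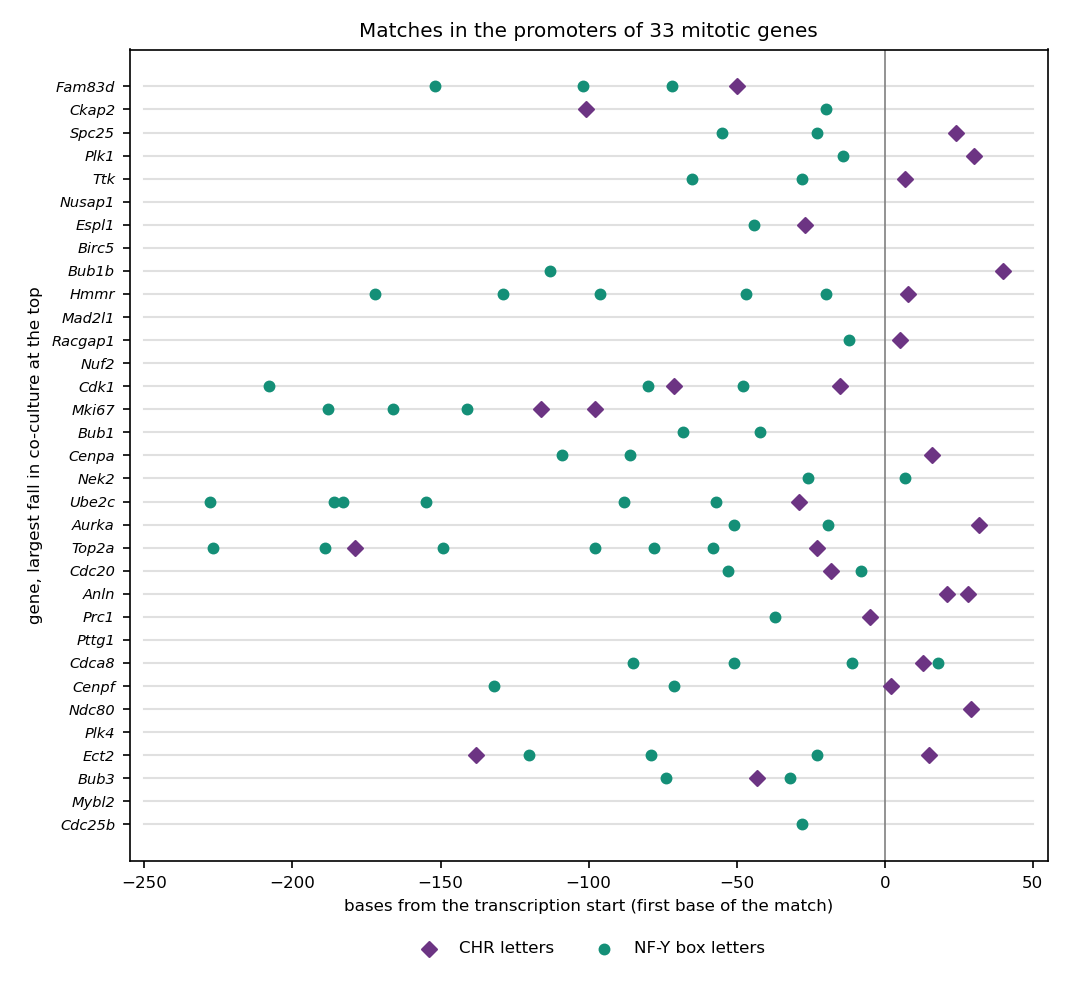
Positions of the CHR letters (diamonds) and the NF-Y box letters (circles) in 1 window for each of 33 members, in bases from the transcription start (x axis), with genes ordered down the page from the largest co-culture deficit to the smallest. CHR matches gather near the start with a median of -1.5, and NF-Y boxes lie upstream of it with a median of -71.5.

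Signals are MAS5 intensity values on a linear scale. Values under 42.4 were raised to that floor before log2 was taken, and each gene is represented by its brightest probe set, by mean over the 3 arrays. A gene counts as lower or higher when its signals differ at least 2-fold and the brighter one is 149.3 or more, which is the level called bright here. All 40 members were bright on all 3 arrays, so no member was lost to the signal filter and none rests on the floor. The arrays had median signals of 72.5 in co-culture, 71.6 in conditioned medium and 79.8 in regular medium, with 40.7%, 41.4% and 38.0% of probe sets under the floor. Of 20 epithelial markers, 19 were bright on each array, among them Krt8, Krt18 and Epcam, and their summed signal was 116788 in co-culture, 92598 in conditioned medium and 90056 in regular medium. Between co-culture and regular medium, 16 of 19 tested had a higher signal and 3 a lower one, with a median log2 difference of 0.38. Krt14 was 2.77-fold lower, with 439.1 in co-culture and 1217.5 in regular medium, and St14 was 2.04-fold higher. Of 20 MSC and fibroblast markers on the array, 7 were bright in co-culture and 5 on each other array. Their summed signal was 11523 in co-culture, 7561 in conditioned medium and 7299 in regular medium. Most of each sum came from Vcam1, Nt5e and Eng, with 3867.9, 3185.9 and 1476.5 in co-culture. These 3 genes were also bright in regular medium, without MSCs, at 2660.5, 2156.7 and 937.8. The sum therefore does not measure MSC RNA alone. Of the 8 MSC and fibroblast markers that could be tested between co-culture and regular medium, 7 had a higher signal in co-culture. Their median log2 difference was 0.77. Postn (periostin) had 1803 in co-culture, 949.5 in conditioned medium and 766 in regular medium, 2.35-fold higher. Bgn (biglycan) had 182 in co-culture, 57.8 in conditioned medium and 12.3 in regular medium, 4.28-fold above the floor that stands for regular medium. Pdgfra and Col1a2 were each 1.85-fold higher, and Col6a2 was 1.51-fold lower. With the median over a gene's probe sets, 4 of the markers could be tested, 2 of them lower, with a median of 0.19. In co-culture 8 of the 20 were under the floor, namely Col1a1, Cxcl12, Dcn, Lepr, Mgp, Pdgfrb, Prrx1 and Thy1. Leukocyte markers (7 genes) summed to 865.6, 752.7 and 769.2 and endothelial markers (6 genes) to 398.0, 352.4 and 444.6 in co-culture, conditioned medium and regular medium. The epithelial, MSC and leukocyte sums were highest in co-culture, where the mitotic genes were lowest, and the endothelial sum was highest in regular medium. Their part in the results below was not tested.

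The first comparison, of co-culture with regular medium, shows how mitotic transcripts stood after 1 week of contact with MSCs and the isolation that followed. Every one of the 40 members had a lower signal in co-culture, where 44.0% of the 9393 genes tested had a lower signal. Of the members, 13 were at least 2-fold lower and none was at least 2-fold higher, against a background of 2.76% lower and 5.81% higher. Among the 6508 genes in the members' range of mean signal, 45.6% had a lower signal and 2.17% were at least 2-fold lower. The median log2 difference of the members was -0.88, a median of 1.84-fold lower, and the interquartile range over genes was -1.13 to -0.56. The same median over all genes tested was 0.07. At 1.5-fold, 27 members were lower, where 9.86% of genes were. Ranked from the lowest difference, 27 of the 40 stood in the lowest 10% of 9393 genes. A smaller share of cells expressing these genes and less of each transcript per expressing cell cannot be told apart in whole-culture RNA. Contact cannot be told apart from isolation, from RNA of remaining MSCs or from a difference in culture time, which is not stated for regular medium.

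**Figure D2:**
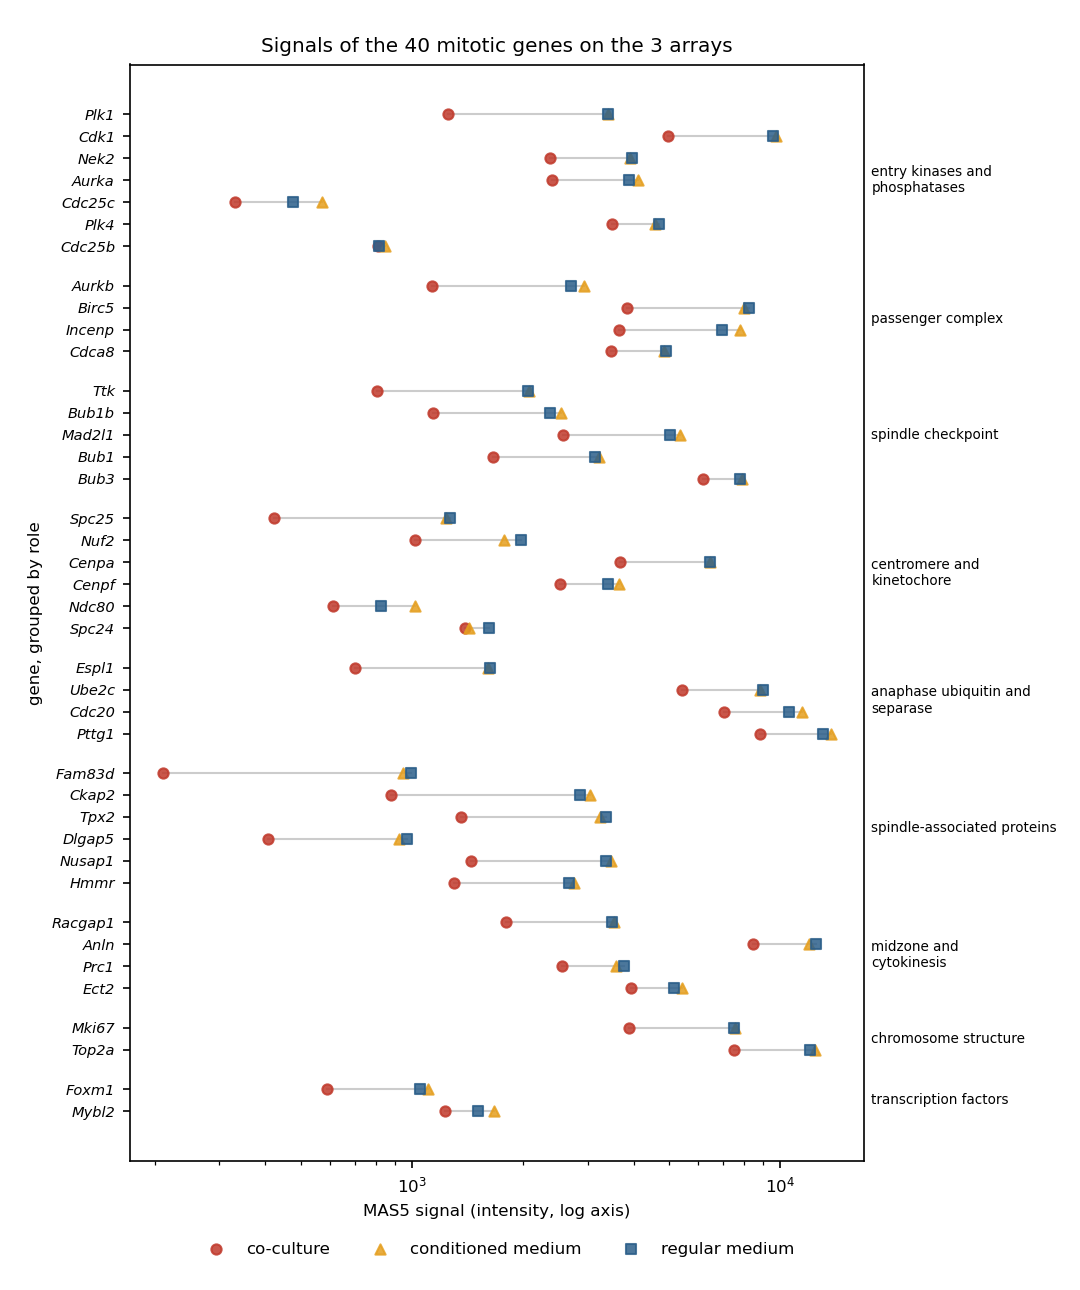
MAS5 signal (log axis) of each member on the co-culture, conditioned-medium and regular-medium arrays, with genes grouped by role and 1 point for each array. The co-culture point is the leftmost in all 40 genes, while the points of the other arrays lie close together, and signals of different genes are not compared.

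The kinases and phosphatases of mitotic entry had a median log2 difference of -0.70 over 7 genes. Plk1, the Polo kinase needed for spindle assembly and cytokinesis, had a signal of 1254 in co-culture, 3411 in conditioned medium and 3400.4 in regular medium. Co-culture was therefore 2.71-fold below regular medium, the one member of this group past 2-fold. Cdk1, the kinase that triggers mitosis, had 4959.7 in co-culture, 9729 in conditioned medium and 9571 in regular medium, 1.93-fold lower and short of the threshold. The phosphatases that activate Cdk1 stood nearer to regular medium than Cdk1 itself. Cdc25b had 810.2 in co-culture, 847 in conditioned medium and 814 in regular medium, a log2 difference of -0.01 that is the smallest of all 40 members. Cdc25c had 329.9 in co-culture against 476 in regular medium, a difference of -0.53, and its other bright probe set gave -0.78. Nek2, which separates centrosomes, differed by -0.74, Aurka, the spindle-pole Aurora kinase, by -0.70, and Plk4, which starts centriole duplication, by -0.43. For Plk4 another bright probe set was 2.32-fold lower, with 622 in co-culture and 1442 in regular medium.

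The 4 subunits of the chromosomal passenger complex, which corrects faulty attachments and then directs cytokinesis, had a median of -1.02. Its kinase Aurkb had 1131 in co-culture, 2930.4 in conditioned medium and 2711 in regular medium, 2.40-fold lower. Birc5 (survivin) had 3851 in co-culture, 8003 in conditioned medium and 8254 in regular medium, 2.14-fold lower. Both thus stood past 2-fold, with the conditioned-medium signal next to that of regular medium. The scaffold Incenp had 3641 in co-culture, 7788 in conditioned medium and 6970.0 in regular medium, 1.91-fold lower. Incenp is the 1 member whose bright probe sets differed in direction. Its probe sets gave differences of -1.84, -0.94 and -0.76, and another, at 296 in co-culture and 266 in regular medium, gave 0.15. Cdca8 (borealin) had 3464 in co-culture, 4852 in conditioned medium and 4915 in regular medium. On the brightest probe set of each gene, this was the smallest difference of the complex, at -0.50. Other bright probe sets of Cdca8 gave -0.71 and -0.76. Without probe sets with s, x or a in the name, 2 of these genes were left, Incenp and Cdca8. Their median was -0.74, and neither was past 2-fold.

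Among the 5 spindle checkpoint genes the median was -0.96. Ttk (Mps1), the kinase that starts checkpoint signalling at unattached kinetochores, had 805 in co-culture, 2077 in conditioned medium and 2069.8 in regular medium, 2.57-fold lower. Bub1b (BubR1), part of the inhibitor of the anaphase-promoting complex, had 1142 in co-culture, 2544 in conditioned medium and 2372 in regular medium, 2.08-fold lower. Its other bright probe set gave nearly the same difference, -1.06 beside -1.05. Mad2l1 (Mad2), which binds and holds Cdc20, was 1.95-fold lower with 2576 in co-culture against 5022 in regular medium, and the kinase Bub1 was 1.89-fold lower. Bub3, the partner that brings Bub1 and BubR1 to kinetochores, had 6194 in co-culture, 7895 in conditioned medium and 7776 in regular medium, 1.26-fold lower. The 4 bright probe sets of Bub3 spread from -1.69 to -0.20, and the largest difference came from the dimmest of them, with 53.2 in co-culture and 171 in regular medium.

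The 6 centromere and kinetochore genes had a median of -0.62 and differed widely within a single complex. Ndc80, Nuf2, Spc24 and Spc25 form the rod-shaped Ndc80 complex that grips microtubules. Spc25 had 422 in co-culture, 1239.8 in conditioned medium and 1271 in regular medium, 3.01-fold lower. Its direct partner Spc24 had 1392 in co-culture, 1427 in conditioned medium and 1617 in regular medium, 1.16-fold lower, so that conditioned medium stood with co-culture. Nuf2 had 1020.1 in co-culture, 1782 in conditioned medium and 1978 in regular medium, a difference of -0.96. Ndc80 had 612 in co-culture, 1019 in conditioned medium and 824 in regular medium, a difference of -0.43. These 4 subunits, each measured by 1 bright probe set, thus ranged from -1.59 to -0.22. Cenpa, the histone H3 variant that marks centromeres, differed by -0.81, and the large kinetochore protein Cenpf by -0.44. A second bright Cenpa probe set was 2.19-fold lower, and the other bright Cenpf probe sets gave -0.87 and -0.46.

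Genes that open anaphase had a median of -0.66 over 4 members. Espl1, the separase that cuts cohesin, had 700.3 in co-culture, 1605 in conditioned medium and 1629.7 in regular medium, 2.33-fold lower. Its inhibitor Pttg1 (securin) had 8848 in co-culture, 13720.2 in conditioned medium and 13113 in regular medium, 1.48-fold lower. On the brightest probe set of each, the protease thus lay further below regular medium than its inhibitor. Other bright probe sets of Pttg1 gave -0.90 and -0.86, nearer to the -1.22 of Espl1. Ube2c, the ubiquitin-conjugating enzyme of the anaphase-promoting complex, differed by -0.73, and Cdc20, the activator of that complex, by -0.59. The other 2 bright probe sets of Cdc20 gave -0.97 and -0.87.

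The 6 spindle-associated proteins had the lowest median of the role groups, -1.28, and all 6 were at least 2-fold lower. With the median over a gene's probe sets 3 of the 6 were, with Nusap1 at -0.77, Dlgap5 at -0.67 and Tpx2 at -0.52. Fam83d, which recruits casein kinase 1 to the spindle, had 211 in co-culture, 945 in conditioned medium and 992 in regular medium. At 4.71-fold lower it was the most reduced member, and rank 12 from the lowest of 9393 genes. Ckap2, a microtubule-binding protein of spindle poles, had 880.0 in co-culture, 3049.6 in conditioned medium and 2857 in regular medium, 3.25-fold lower. Tpx2, which activates Aurora A and nucleates microtubules near chromosomes, had 1357 in co-culture, 3249 in conditioned medium and 3358 in regular medium, 2.47-fold lower. Its other 3 bright probe sets gave smaller differences, from -0.68 to -0.37. Dlgap5 (HURP), which stabilises the fibres attached to kinetochores, had 407 in co-culture, 921 in conditioned medium and 972 in regular medium, 2.39-fold lower, and its second bright probe set differed by -0.09. Nusap1, a microtubule bundling protein, had 1443 in co-culture, 3468 in conditioned medium and 3374 in regular medium, 2.34-fold lower, and its other probe set was dim, with 28.2 in co-culture and 52.9 in regular medium. Hmmr (RHAMM), a spindle and hyaluronan-binding protein, had 1298 in co-culture, 2749.7 in conditioned medium and 2675 in regular medium, 2.06-fold lower. All 5 of its probe sets were bright, and they gave differences from -2.00 to -0.99.

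Midzone and cytokinesis genes had a median of -0.57 over 4 members, and none was past 2-fold on the probe set that stands for it. Racgap1, a subunit of centralspindlin, had 1797 in co-culture, 3543 in conditioned medium and 3498 in regular medium, 1.95-fold lower. Ect2, the exchange factor that switches on RhoA at the equator, had 3949 in co-culture, 5418 in conditioned medium and 5154 in regular medium, 1.31-fold lower. Racgap1 therefore lay further below regular medium than its partner Ect2. Anln (anillin), which organises the contractile ring, differed by -0.57, and Prc1, which bundles midzone microtubules, by -0.57. A second bright Anln probe set was 2.75-fold lower, with 97.9 in co-culture, 322 in conditioned medium and 269 in regular medium.

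Of the genes of chromosome structure, Mki67 (Ki-67), a coat of mitotic chromosomes used as a proliferation marker, was 1.92-fold lower with 3897 in co-culture, 7549.8 in conditioned medium and 7498 in regular medium. Top2a, the topoisomerase that disentangles sister DNA, had 7493 in co-culture, 12464 in conditioned medium and 12054 in regular medium, 1.61-fold lower. A second bright Top2a probe set was 2.60-fold lower, so the size of the Top2a difference depends on the probe set. The transcription factor Foxm1 had 588 in co-culture, 1104 in conditioned medium and 1052 in regular medium, 1.79-fold lower. Its other bright probe sets gave -0.13 and -0.11. Mybl2 (B-Myb) had 1228 in co-culture, 1675 in conditioned medium and 1515 in regular medium, 1.23-fold lower, and its second bright probe set was 2.61-fold lower. Neither factor was past 2-fold on the probe set that stands for it.

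The size of a difference depended on the probe set more than its direction did. Of the 90 probe sets, 77 were bright in co-culture or regular medium, and 76 of these were lower in co-culture and 1, of Incenp, was higher. At least 2-fold lower were 25 of the 77, where 5.49% of 16899 probe sets with 1 gene symbol were, and 48.9% had a lower signal at any size. In 22 members with 2 or more bright probe sets, the SD within a gene was 0.45 on the log2 scale, and the range within a gene had a median of 0.41 and reached 1.99 in Incenp. For 14 of those 22, the probe set that stands for the gene gave the smallest difference of its bright probe sets. Of the 27 members that were not called, 7 had another bright probe set at least 2-fold lower (Anln, Bub3, Cenpa, Incenp, Mybl2, Plk4 and Top2a), and 7 members lay between 1.8-fold and 2-fold lower. Of the 13 dim probe sets, 8 were at the floor in both conditions, 4 were lower and 1, of Nek2, was higher in co-culture.

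**Figure D3:**
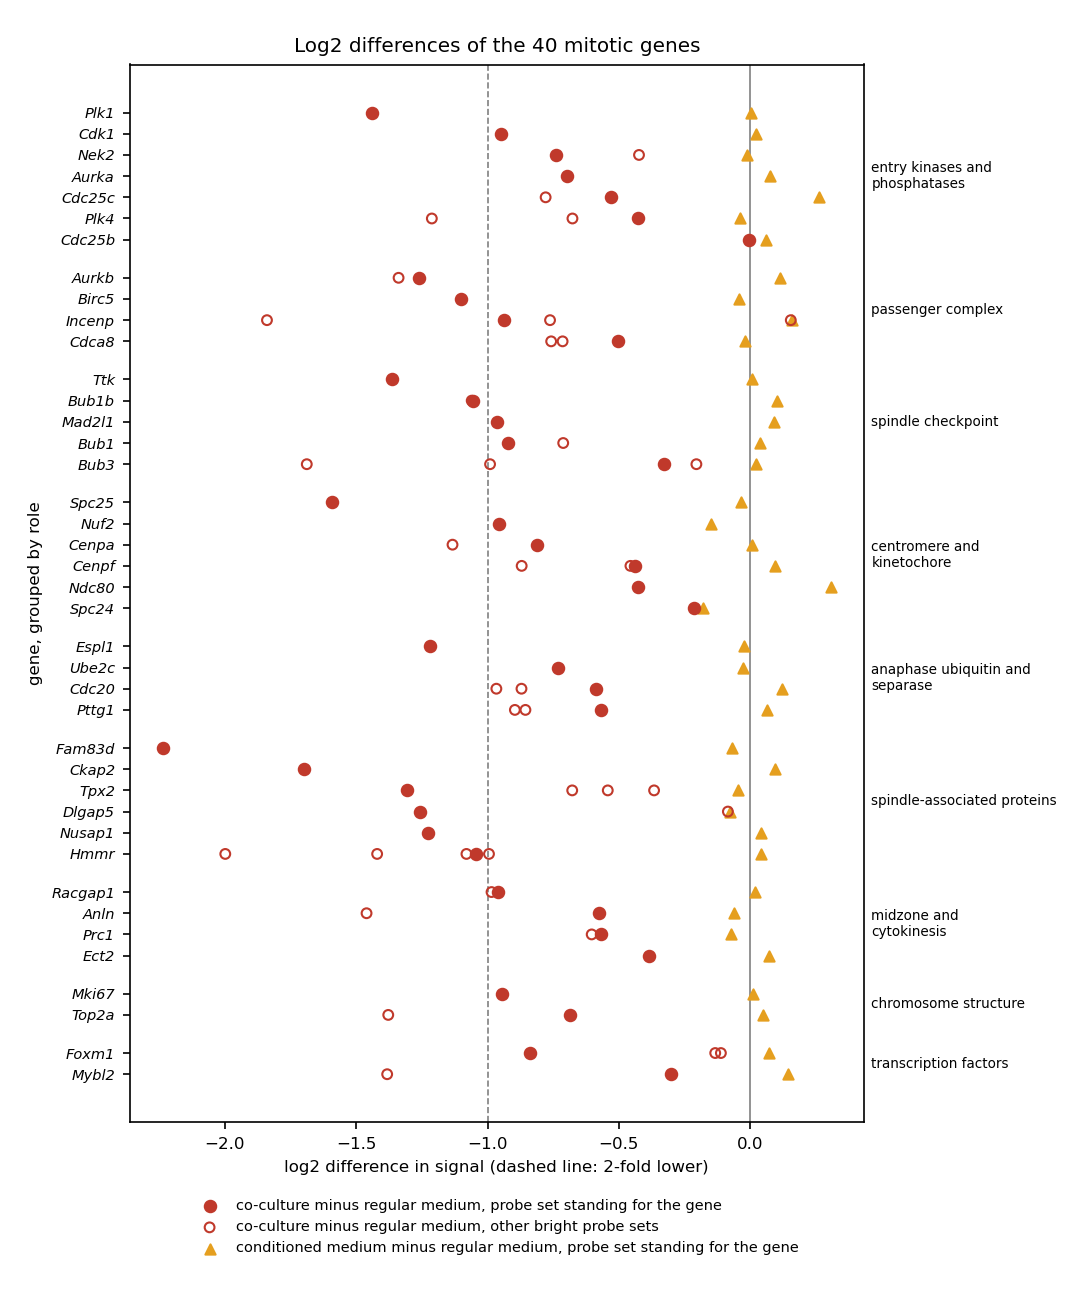
Log2 difference of co-culture minus regular medium for every bright probe set of the members (filled circles for the probe set that stands for the gene, open circles for others) and of conditioned medium minus regular medium for the probe set that stands for the gene (triangles), with genes grouped by role. The filled circles run from -2.24 to -0.01, left of 0 in all 40 genes, and the triangles from -0.18 to 0.31.

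The comparison of conditioned medium with regular medium concerns exposure to what MSCs secrete, without contact. The members lay close to regular medium, with no member 2-fold lower or higher, beside backgrounds of 0.306% lower and 0.109% higher among 9152 genes. Of the 40, 14 had a lower signal and 26 a higher one, where 46.3% of all genes tested had a lower signal. Their median log2 difference was 0.02, the interquartile range over genes was -0.03 to 0.08, and the median over all genes was 0.01. The largest difference was that of Ndc80, at 0.31, followed by Cdc25c at 0.26, and the lowest was that of Spc24, at -0.18. Plk1, Ttk, Cenpa and Mki67 differed by at most 0.01. This comparison shares the regular-medium array with the one above, so the values of each are given side by side and not as independent of each other.

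**Figure D4:**
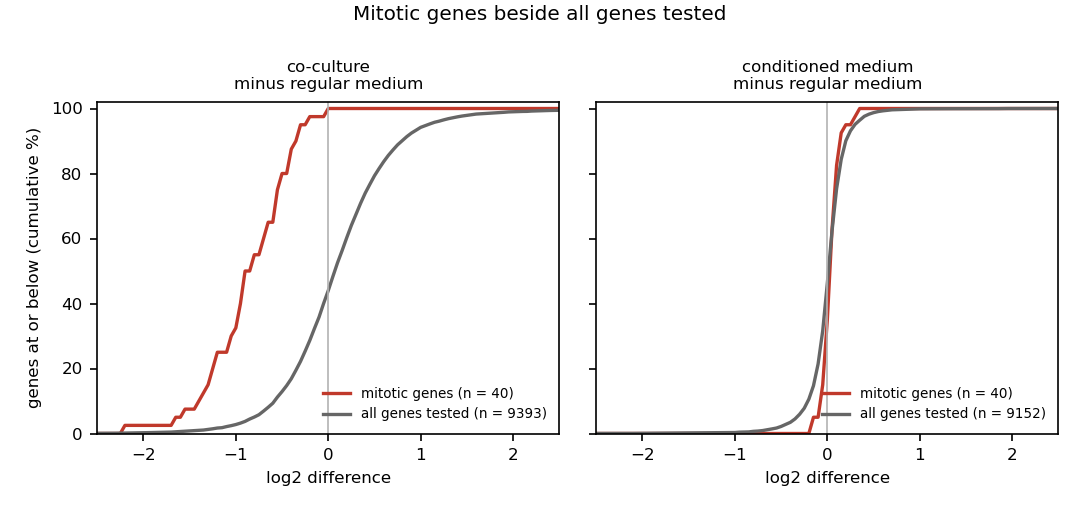
Cumulative percent of genes (y axis) at or below each log2 difference (x axis), for the 40 mitotic genes and for all genes tested, with co-culture minus regular medium on the left and conditioned medium minus regular medium on the right. On the left the mitotic genes have a median of -0.88 beside 0.07 for all genes, and on the right 0.02 beside 0.01.

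The third comparison sets co-culture beside conditioned medium. Contact, isolation and RNA of remaining MSCs cannot be told apart in it, and the summed MSC marker signal was 11523 in co-culture and 7561 in conditioned medium. Most of both sums came from Vcam1, Nt5e and Eng, which were bright in regular medium too. All 40 members had a lower signal in co-culture, where 44.0% of 9350 genes did, and 15 were at least 2-fold lower against 2.6%. None was 2-fold higher, where 5.83% of genes were. The median log2 difference was -0.86, and the interquartile range over genes was -1.16 to -0.61. Incenp was 2.14-fold below conditioned medium and 1.91-fold below regular medium, and Mad2l1 was 2.08-fold and 1.95-fold lower in the same order. Fam83d was 4.48-fold, Ckap2 3.47-fold and Spc25 2.94-fold below conditioned medium. Spc24 differed from conditioned medium by -0.04, the smallest difference of this comparison, and Cdc25b by -0.06. Co-culture was the lowest of the 3 arrays in 40 of 40 members, against 38.8% of the 9452 genes that were bright on at least 1 array.

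Genes of the same processes outside the 40 are given for the same contrast of co-culture with regular medium. Among 26 other kinetochore and centromere genes, 25 (all but Mis12, at 0.41) had a lower signal and 3 were at least 2-fold lower, with a median of -0.54. These 3 were Spdl1 (Spindly), which brings dynein to kinetochores, at 2.78-fold, Oip5, which helps load Cenpa, at 2.71-fold, and Ska1, of the complex that joins Ndc80 at microtubules, at 2.42-fold. Of 27 other spindle and centrosome genes, 26 had a lower signal and 5 were at least 2-fold lower, with a median of -0.64. Troap was 3.14-fold, the abscission protein Cep55 2.31-fold and Spag5 (astrin) 2.27-fold lower. Of 20 cohesin and condensin genes, 15 had a lower signal and 2 were past 2-fold, namely Cdca5 (sororin) at 2.38-fold and the shugoshin Sgo2a at 2.23-fold, with Rad21 next at 1.95-fold and a list median of -0.43.

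Among 14 subunits and regulators of the anaphase-promoting complex the median was -0.21. Its G1 activator Fzr1 (Cdh1) was 2.38-fold lower and the one gene of that list past 2-fold, with Anapc2 at -0.75 and the inhibitor Fbxo5 (Emi1) at -0.66. Of 10 other regulators of mitotic entry, 8 had a lower signal and none was past 2-fold, with a median of -0.47. The kinase Melk differed by -0.88, the Plk1 activator Bora by -0.79 and Pbk by -0.77, while Wee1, the kinase that restrains Cdk1, differed by 0.08. The transcription regulators of the cell cycle had a median of -0.09 over 20 tested genes, 13 of them with a lower signal. That median was -0.33 with the median over a gene's probe sets (14 of 20 lower), -0.13 with equal array medians, -0.12 after quantile normalization, and 0.02 without probe sets with s, x or a in the name (8 of 16 lower). The MuvB subunits Lin9 and Lin54 differed by -0.09 and 0.22, and Lin37 had 233.8 in co-culture and 234.5 in regular medium. The largest differences of that list were E2f2 at -0.88, E2f8 at -0.65 and, in the other direction, the retinoblastoma gene Rb1 at 0.86, with 618 in co-culture, 288 in conditioned medium and 341 in regular medium.

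Beside these, 11 mitotic kinesins had a median of -0.87, 10 with a lower signal and 3 past 2-fold (Kif11, Kif20a and Kif18b at 4.00-fold, 2.62-fold and 2.11-fold). Among 11 cyclins the median was -0.44, with 5 at least 2-fold lower, led by Ccnf, Ccna2 and Ccne2 at 3.05-fold, 2.87-fold and 2.79-fold, and the D-type cyclin Ccnd2 2.11-fold higher. The cyclin median was -0.92 over 10 genes with the median over a gene's probe sets, beside -0.90 for the members and -0.81 for the kinesins, and -0.65 without probe sets with s, x or a in the name. Of 44 DNA replication genes, 38 had a lower signal and 6 were at least 2-fold lower, with a median of -0.53. Tk1, Lig1 and Rfc3 were 2.48-fold, 2.41-fold and 2.32-fold lower, and the origin subunit Orc5 was 2.28-fold higher. The 10 reference genes on the array also had lower signals in co-culture, with a median of -0.21 and Hprt lowest at -0.71. After quantile normalization 9 of these 10 were lower, with a median of -0.09, and with equal array medians all 10 were lower, with a median of -0.26. With the median over a gene's probe sets 9 of 10 were lower, with a median of -0.17, and without s, x or a probe sets 7 of 8, with a median of -0.13. Whether the members differ from any of these lists was not tested, since each condition has 1 array.

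**Figure D5:**
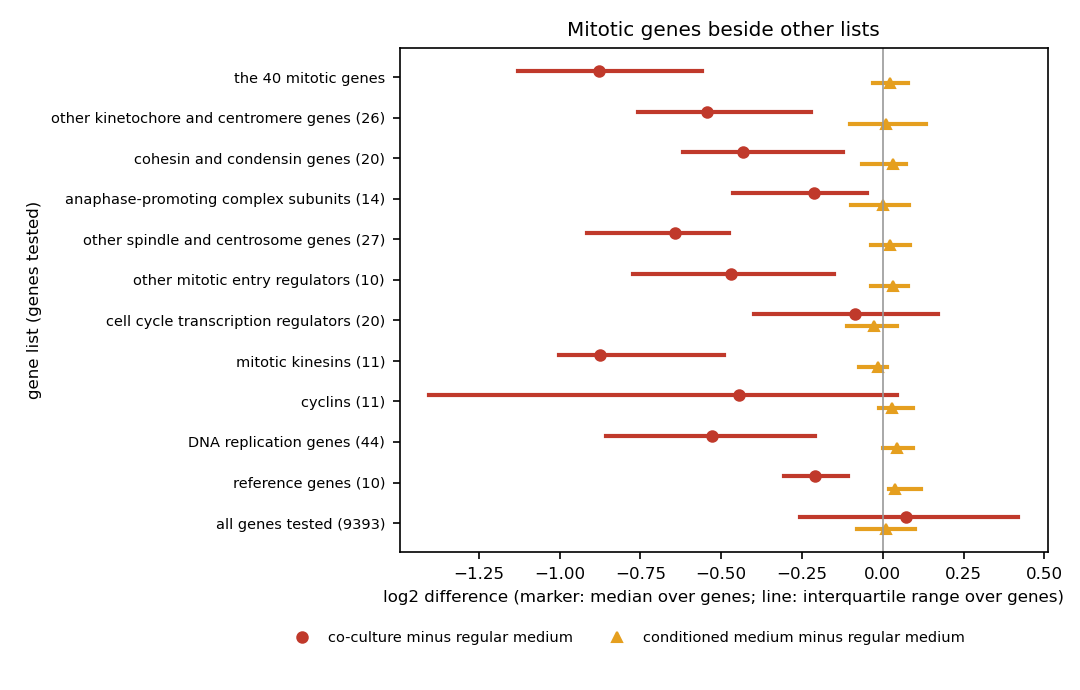
Median (marker) and interquartile range over genes (line) of the log2 difference for the 40 mitotic genes, for 10 other lists and for all genes tested, for co-culture minus regular medium (circles) and conditioned medium minus regular medium (triangles). The circles of the mitotic genes and the kinesins lie lowest in this setting, at -0.88 and -0.87, although the cyclins were at -0.92 with the median over a gene's probe sets, and their triangles lie at 0.02 and -0.01.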

How the data were processed

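Total RNA (5 ug) was labelled with biotin and hybridised to 3 arrays, per the labels' protocols. The deposited values are MAS5 intensity values on a linear scale, per the submitters' processing notes. Neither a software version nor a target for scaling is given in the sources used here. The 2%-trimmed means were 498.0, 497.7 and 497.8, and the arrays were not rescaled. Of 45037 probe sets, 34945 had 1 symbol, 932 several and 9160 none. For 34741 probe sets the gene ID gave the current symbol. The floor of 42.4 and the bright level of 149.3 are the pooled 40th and 60th percentiles.

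The members, the lists and the rules were chosen with earlier results of these data known. Named with values were members past 2-fold, the smallest difference of each role group, members whose bright probe sets differed in direction, and up to 3 genes of each other list, plus any called in the opposite direction. Cdk1, Nuf2, Ndc80, Racgap1, Mki67, Foxm1, Wee1, Lin9, Lin37, Lin54, Rb1's signals and values quoted beyond these were chosen after their values were seen. The call rule was run on simulated data with an assumed noise, changed genes well above the bright level and no simulated fold close to 2-fold. That run therefore says nothing on calls near the threshold. Alternatives changed the scaling, floor, signal filter, probe set and fold. Where the median over a gene's probe sets was used, it was taken over the signals of each array, before the difference between arrays. Computation used Python 3.11.15, NumPy 2.4.6 and pandas 2.3.3.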

Additional observations from a re-analysis of the deposited data

How the results depend on the processing

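With 1 array a condition, the number of arrays limits the precision, and spread between cultures was not measured. No paired analysis was possible because each condition has 1 array. Of 120 recomputed values of the counts and medians, 116 stayed within 1.5 times the count, or for a median within the SD between probe sets of a gene, 0.45. The other 4 came from the fold rule by construction. Many of the values could not move, so the tally is no measure of stability. Every member was bright on all 3 arrays, so other floors and the absence of a filter left the member values unchanged. Counts of members called higher were 0 in every setting. The SD of 0.45 is also wide beside the conditioned-medium median of 0.02. At 1.5-fold, 27 members were lower in co-culture than in regular medium (9.86% of all genes) and 30 lower than in conditioned medium (9.95%). At 3-fold, these counts were 3 (0.617% of all genes) and 2 (0.599%). Under quantile normalization, equal medians, other floors, other filters and other probe sets, 12 to 16 members were at least 2-fold below regular medium, against 1.94% to 4.04% of all genes, and their median ran from -0.94 to -0.87. The members behind these counts changed. With the median over a gene's probe sets, Dlgap5, Nusap1, Tpx2 and Ttk were no longer 2-fold lower, while Anln, Cenpa, Incenp and Top2a were. That median is taken on each array before the difference, so it can pair different probe sets. For Incenp the resulting -1.56 paired 295.8 in co-culture from 1 probe set with 869.6 in regular medium from another. On their own, these probe sets gave 0.15 and -1.84. With equal medians Mad2l1, Nuf2 and Racgap1 were added. All 40 members stayed below regular medium under both scalings. With the median over a gene's probe sets 39 of 40 did, and Nek2 was at 0.06. Leaving out probe sets with s, x or a in the name left 32 members, of which 31 were bright enough to test against regular medium, without Spc25, and all 31 were lower.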
